A study of Mus musculus with 2 samples.

Results

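The genes described here are those of the proteasome in the mouse cerebral cortex. They were chosen by symbol: names that begin with Psm, a letter from a to g and a digit, without the pseudogene suffix, and with at least 1 transcript annotated as protein-coding. Of 55536 annotated genes in the tables, 54 carried such a symbol, 4 were dropped as pseudogenes and 50 remained. They lie on 16 chromosomes. The rule uses no measured value. It also takes in 1 gene that is no proteasome gene, Psmc3ip, which encodes the meiotic recombination factor Hop2.

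The tissue was cortex from the left side of the brain of 2 B6CASTF1/J females, a hybrid strain between C57BL/6J and CAST, at 10 days of age. Each animal gave 1 total RNA-seq library, made from 300 ng of input RNA to which ERCC spike-ins (synthetic transcripts) had been added. Both animals form a single untreated group as biological replicates 1 and 2, and all compared values are therefore between genes or between the 2 libraries. The labels do not say if the animals shared a litter or a preparation day, so each SD (n = 2 throughout) holds for these 2 animals alone. No p-value was computed, because the smallest exact two-sided p that 2 values allow is 0.5.

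The proteasome degrades proteins that are tagged with ubiquitin. Its 20S core is a barrel of outer α rings and inner β rings, and the proteolytic sites are on β1, β2 and β5. The 19S regulatory particle caps the barrel: its base holds the ATPases that unfold substrates, and its lid removes the ubiquitin chain. In cells exposed to interferon, and constantly in many immune cells, β1i, β2i and β5i replace the catalytic subunits in newly made cores to form the immunoproteasome, which favours peptides suited to MHC class I. In neurons the proteasome is known for protein turnover at synapses and for clearing damaged proteins.

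The libraries held 29990965 expected reads in replicate 1 and 31156256 in replicate 2. Levels are TPM, a share of all transcripts that is corrected for length, so they can be set side by side between genes. Markers of the labelled tissue were present, with all 6 cortical neuron genes detected and a median of 105 ± 5.88 TPM. All 6 microglial markers (median 22.9 ± 1.22 TPM) and all 6 endothelial markers (10.7 ± 0.304 TPM) were also detected. Of 6 T and NK cell markers, 0 were detected, and their summed level was 0.22 TPM in replicate 1 and 0.09 TPM in replicate 2, with Nkg7 and Gzmb at 0 in both. In bulk tissue, fewer cells of a type and less RNA per cell cannot be told apart.

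The proteasome genes were broadly expressed. At 1 TPM or more in both libraries, 45 of the 50 (90%) were detected, against 59.1% of the 22028 annotated protein-coding genes. At 5 TPM or more in both, the count was 44 of 50 (88%), against 46.5%. The median over all 50 was 55.1 ± 2.03 TPM, beside 16.5 ± 0.856 TPM over the 13016 detected protein-coding genes. Together the 50 genes took 0.221% of gene reads in replicate 1 and 0.225% in replicate 2. The 5 genes not detected in both libraries were Psmb8 and Psmb9 of the immunoproteasome, the testis subunit Psma8, the thymus subunit Psmb11 and the gene copy Psme2b. With TPM rescaled to nuclear protein-coding genes, Psmb8 (1.61 and 1.26) and Psme2b (1.12 and 1.26) passed 1 TPM, so these 2 sit near the limit. All subunits of the standard 20S core and of the 19S particle that carry a Psm symbol were detected.

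**Figure D1:**
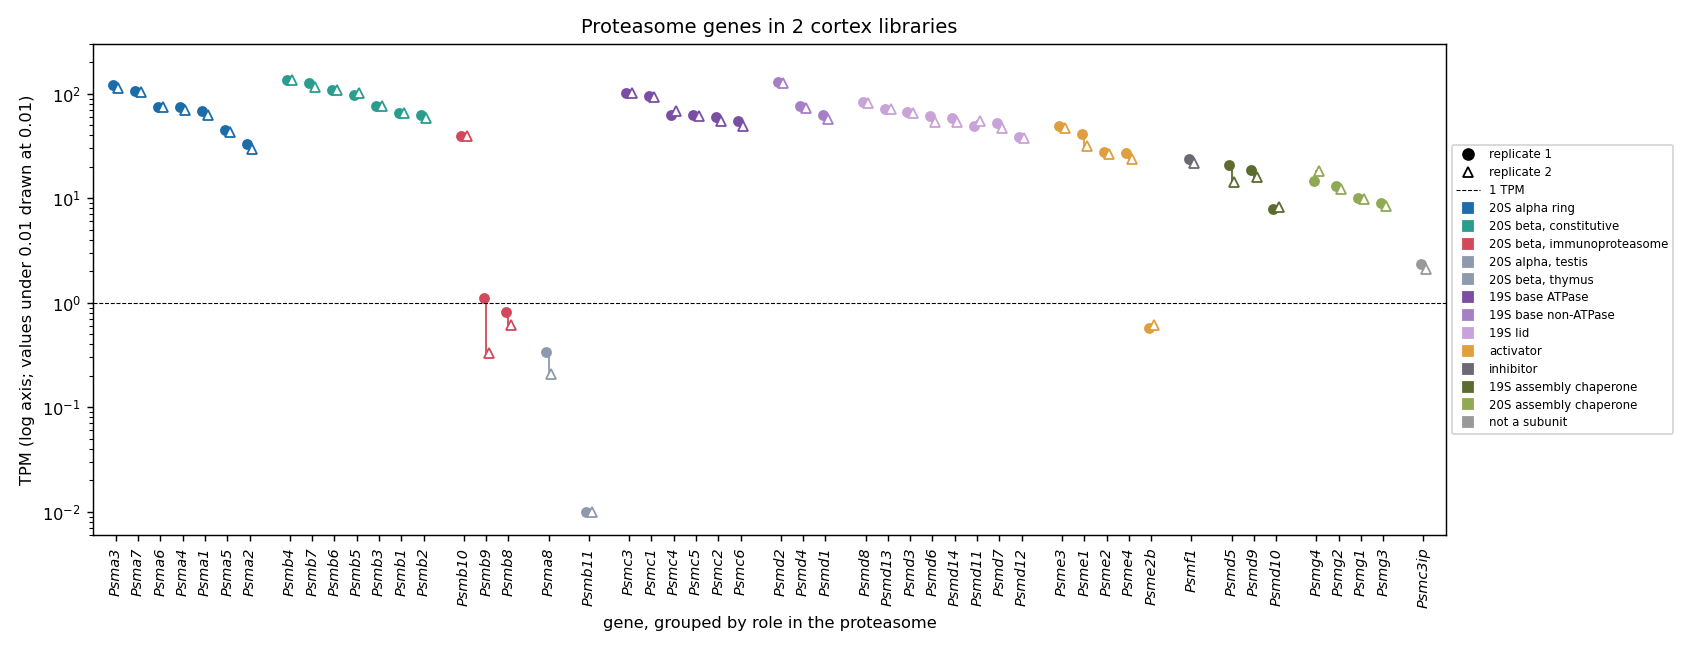
TPM of the 50 genes (log axis) in replicate 1 (filled circles) and replicate 2 (open triangles), grouped by role and ordered by mean level within a role; the dashed line is at 1 TPM. Standard core and 19S genes sit between 29.46 and 135.36 TPM, assembly chaperones lower, and Psmb8, Psmb9, Psma8, Psmb11 and Psme2b near or below 1 TPM.

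The catalytic β subunits of both kinds differed widely in level, and a set of short sequences is needed to read that contrast. The gene for β2i, Psmb10, lies on the minus strand at chr8:105935735-105938444 (mm10, GENCODE M21). Its protein-coding transcript Psmb10-201 has 8 exons. Psmb10-205, annotated as a retained intron, and Psmb10-203, annotated as a processed transcript, both begin inside the intron between exons 4 and 5. Psmb10-205 then runs on through exon 5, while Psmb10-203 joins exon 6 and skips exon 5. The starts of both are printed from the GENCODE M21 transcript sequences, 5′ to 3′. Lower case in these 2 marks intron bases (chr8:105936982-105937038 and chr8:105936982-105937025), and capitals mark the first 30 bases of the exon that follows. For Psmb10-201, lower case marks the last 30 bases of exon 4 and capitals the first 30 of exon 5.

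Psmb10-205: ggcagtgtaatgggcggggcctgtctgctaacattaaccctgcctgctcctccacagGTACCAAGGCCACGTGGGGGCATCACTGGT

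Psmb10-203: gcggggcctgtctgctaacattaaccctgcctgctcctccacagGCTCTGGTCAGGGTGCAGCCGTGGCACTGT

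Psmb10-201: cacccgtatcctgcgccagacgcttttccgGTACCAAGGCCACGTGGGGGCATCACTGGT

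At the gene level, the 3 immunoproteasome subunits did not behave alike. Psmb9, which encodes β1i, stood at 1.11 TPM in replicate 1 and 0.33 TPM in replicate 2, from 13 and 6 expected reads. Its constitutive counterpart Psmb6 (β1) stood at 108.74 and 109.97 TPM. The log2 ratio of Psmb9 to Psmb6 was −6.49 in replicate 1 and −8.00 in replicate 2, a mean of −7.25 ± 1.07 after 0.1 TPM was added to both. Psmb9 rested on few reads, and its level in replicate 1 was higher than in replicate 2, yet both libraries placed it far below Psmb6. Psmb8, for β5i, was at 0.82 and 0.61 TPM from 14 and 15 reads, against 96.62 and 101.98 TPM for Psmb5 (β5). That log2 ratio was −6.72 and −7.17, a mean of −6.94 ± 0.32. In TPM, Psmb8 reached 0.849% of Psmb5 in replicate 1 and 0.598% in replicate 2.

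Psmb10 was far above the other 2 immunoproteasome subunits, at 39.45 TPM in replicate 1 and 39.77 TPM in replicate 2 from 454 and 497 reads. Its counterpart Psmb7 (β2) stood at 126.26 and 115.50 TPM. Psmb10 thus reached 31.2% of Psmb7 in replicate 1 and 34.4% in replicate 2, a log2 ratio of −1.68 and −1.54 (mean −1.61 ± 0.099). For all 3 pairs the deposited credible intervals of the immunoproteasome gene and its counterpart were apart in both libraries, although the level of those intervals is not stated. Psmb10 over Psmb8 gave a log2 ratio of 5.43 in replicate 1 and 5.81 in replicate 2. Immunoproteasome genes held 11.1% of the summed TPM of the 6 catalytic genes in each library, nearly all of it from Psmb10. Reads of a pair are readily told apart: the longest run of identical bases between protein-coding transcripts was 11 for Psmb9 and Psmb6, 15 for Psmb10 and Psmb7, and 18 for Psmb8 and Psmb5.

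Most of the Psmb10 level was assigned to transcripts that are not annotated as protein-coding. Psmb10-205 held 16.18 TPM in replicate 1 and 18.12 TPM in replicate 2, which is 41.0% and 45.6% of the gene. Psmb10-203 held 25.6% and 24.9%, and Psmb10-206, another retained intron, 10.6% and 9.93%. The protein-coding Psmb10-201 held only 7.34 and 7.65 TPM, or 18.6% and 19.2%, from 166.57 and 189.77 expected reads. In reads, however, it was above Psmb10-205, which had 137.83 and 168.80. Psmb10-201 is 1311 bases long and Psmb10-205 is 554, so the lead of Psmb10-205 is one per length. The alignment-free tables gave Psmb10-201 a share of 28.8% in replicate 1 and 26.5% in replicate 2. They disagreed between libraries on the leading transcript, which was Psmb10-205 in replicate 1 and Psmb10-207, a further retained intron, in replicate 2. Both quantifications thus placed the coding transcript at under 30% of the gene's TPM, while the order of the other transcripts was not stable.

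The sequence that sets these transcripts apart is short. Of the 554 bases of Psmb10-205, 494 are also in Psmb10-201 and only 60 are not, 57 of them the intron bases printed above. Of the 426 bases of Psmb10-203, 48 are not in Psmb10-201. How a read from the shared bases was assigned therefore bears on every share, and this was not tested. With protein-coding transcripts alone, an alternative added after the data were seen, Psmb10 reached 5.84% of Psmb7 in replicate 1 and 6.64% in replicate 2, a log2 ratio of −4.08 and −3.89 (mean −3.99 ± 0.13). The same ratio from the alignment-free tables was −3.49 and −3.34. On that basis Psmb10 was still above Psmb8 (0.65 and 0.28 coding TPM) and Psmb9 (1.02 and 0.30 coding TPM). Over coding transcripts, the log2 ratio of Psmb8 to Psmb5 was −7.54 ± 0.75, and that of Psmb9 to Psmb6 was −7.12 ± 1.08.

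**Figure D2:**
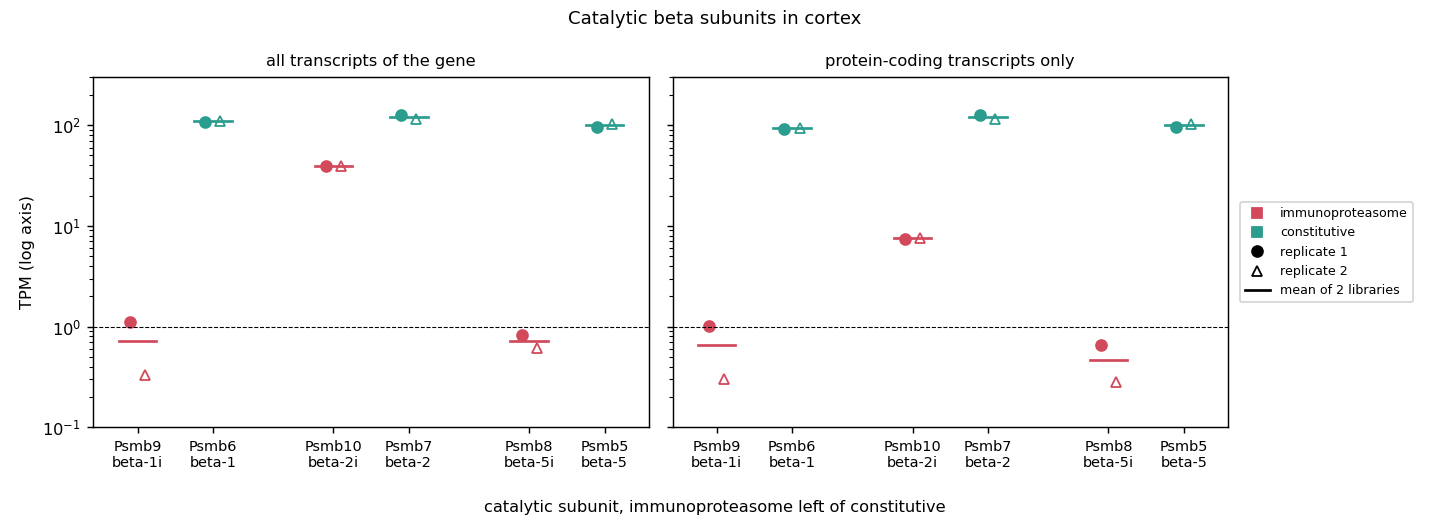
TPM (log axis) of each immunoproteasome subunit (red) left of its constitutive counterpart (green), for all transcripts of the gene and for protein-coding transcripts only; circles are replicate 1, triangles replicate 2 and bars the mean of both. Psmb10 averages 39.6 TPM over all transcripts and 7.50 TPM over coding ones, while Psmb7 stays at 121 and 120.4 TPM.

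Genes that act with the immunoproteasome in antigen presentation were mostly low. Of 9 interferon and MHC class I genes, 8 were detected, with a median of 5.15 ± 0.226 TPM. The highest were B2m, the MHC class I light chain, at 37.90 and 39.60 TPM, and Tapbp, which bridges the peptide transporter to MHC class I, at 17.14 and 16.22 TPM. The peptide transporter genes Tap1 (1.63 and 1.56 TPM) and Tap2 (1.30 and 1.61 TPM) were close to the detection limit. Nlrc5, the transactivator of MHC class I genes, was not detected, at 0.30 and 0.14 TPM. Psmb9 lies 9956 bases from Psmb8 on chromosome 17, and its exons overlap those of Tap1 on the opposite strand over 212 bases, 5.79% of its exon bases. The sources used here do not state if counting used the strand, so reads in that overlap could belong to either gene. This limit holds for 6 of the chosen genes, which overlap an opposite-strand gene at 1 TPM or more in both libraries. Beside Psmb9 they are Psmb7 (11.8% of exon bases, with Nek6), Psmd13 (10.1%, Sirt3), Psmc3 (8.25%, Slc39a13), Psme1 (0.634%, Emc9) and Psmc3ip (21.2%, Mlx).

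Among the tissue-specific core subunits neither was detected. Psma8, the α4s subunit of spermatogenic cells, stood at 0.34 and 0.21 TPM from 8 and 7 reads, against 105.37 and 103.74 TPM for Psma7 (α4). That is a log2 ratio of −7.91 in replicate 1 and −8.39 in replicate 2. Psmb11, the β5t subunit of thymic epithelium, had 0 reads in replicate 1 and 1 read in replicate 2. A library without a single read still allows for 3 reads at 95% confidence, here 0.070 TPM, from counting error only. The alignment-free tables put Psmb11 at 0.448 and 0.264 TPM, from 27.3 and 16.6 estimated reads. That is above the allowance just given, though also under 1 TPM. Psmb11 lies 3410 bases from Psmb5 on chromosome 14, and the longest run the 2 genes share is 13 bases.

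The 14 subunits of the standard 20S core, which the particle holds in equal copy number, had a median of 75.4 ± 0.527 TPM. The α ring had a median of 71.9 ± 3.55 TPM. Psma3 (α7) was the highest α gene at 120.23 and 114.50 TPM, followed by Psma7 at 105.37 and 103.74 TPM. Psma2 (α2) was the lowest at 32.89 and 29.46 TPM, and the other 4 α genes, Psma1, Psma4, Psma5 and Psma6, ranged in mean from 44.0 to 74.8 TPM. The α genes thus spread by 3.66-fold in replicate 1 and 3.89-fold in replicate 2.

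The constitutive β genes had a median of 99.3 ± 3.79 TPM, above that of the α ring, though the alignment-free tables gave 129.9 TPM against 136.0 TPM. They had a narrower spread of 2.17-fold and 2.32-fold. Psmb4 (β7), a structural subunit, was highest at 135.36 and 135.16 TPM; in the alignment-free tables it was below Psmb7 in replicate 1. Psmb7, Psmb6 and Psmb5, the catalytic subunits already given, followed it. Psmb2 (β4) was lowest at 62.32 and 58.30 TPM, next to Psmb1 (β6) at 65.74 and 65.27 TPM, and Psmb3 (β3) had 75.68 and 76.35 TPM. Across the whole core, Psmb4 over Psma2 was 4.12-fold in replicate 1 and 4.59-fold in replicate 2. The alignment-free tables gave a wider range, with Psma3 over Psma2 at 6.60-fold and 7.45-fold, so that Psma2 was the lowest core gene by both quantifications.

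Psma2 also has a long leading transcript: Psma2-201, of 2911 bases, held 66.5% and 62.8% of its TPM. In reads Psma2 was not the lowest core gene, with 1410 expected reads in replicate 1 and 1347 in replicate 2, against 1443 and 1666 for Psmb5. Below it in both libraries were Psmb2 (872 and 902), Psmb3 (958 and 1053) and Psma5 (962 and 1003). In replicate 1 Psma6 (1305), Psma1 (1376) and Psmb6 (1388) were below it as well. TPM is a value per length, so it also depends on which of the 2 Psma2 transcripts the reads were assigned to. How far this bears on the low TPM of Psma2 was not tested. Both Psma2 transcripts are annotated as protein-coding. After both tables were rescaled to nuclear protein-coding genes, its alignment-free level was 0.645 times the alignment-based one.

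The 17 subunits of the 19S particle with a Psm symbol had a median of 61.8 ± 1.52 TPM. The log2 ratio of the 19S median to the core median was −0.26 in replicate 1 and −0.32 in replicate 2 (mean −0.29 ± 0.046). The 19S median was thus 0.819 times the core median. The range within the particle was 3.35-fold in replicate 1 and 3.39-fold in replicate 2, with Psmd2 at the top and Psmd12 at the bottom.

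In the base, the 6 ATPases that form the unfolding ring had a median of 63.6 ± 0.891 TPM. Psmc3 (Rpt5) was highest at 101.94 and 101.76 TPM and Psmc1 (Rpt2), one of the ATPases that open the gate of the core, followed at 95.43 and 93.97 TPM. Psmc6 (Rpt4) was lowest at 54.55 and 49.73 TPM, and Psmc2, Psmc4 and Psmc5 lay between. The alignment-free tables ranked Psmc6 higher, at 129 and 125 TPM on their own scale, above Psmc2, Psmc4 and Psmc5. There Psmc4 was lowest in replicate 1 and Psmc5 in replicate 2. The scaffold subunit Psmd2 (Rpn1) had 129.01 and 128.03 TPM, above every ATPase. In the alignment-free tables Psmc3, at 180.4 and 189.5 TPM, was above Psmd2, at 165 and 172 TPM. Psmd4 (Rpn10), a ubiquitin receptor, had 76.51 and 73.14 TPM, and Psmd1 (Rpn2), the other large scaffold, had 62.16 and 57.82 TPM; in the alignment-free tables Psmd1 was above Psmd4.

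The lid had a median of 57.3 ± 3.72 TPM over 8 genes. Psmd8 (Rpn12) was highest at 83.95 and 82.21 TPM, then Psmd13 (Rpn9) at 71.21 and 71.20 TPM. Psmd12 (Rpn5) was lowest at 38.52 and 37.80 TPM. Psmd14 (Rpn11), the deubiquitinase that cuts the chain from the substrate, stood at 58.47 and 53.54 TPM, near the lid median. The other 4 lid genes, Psmd3, Psmd6, Psmd7 and Psmd11, ranged in mean from 50.1 to 66.6 TPM.

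The activators that can replace 19S on the core had a median of 27.1 ± 1.03 TPM, below those of the 19S particle and the core. Psme3 encodes PA28γ, the nuclear activator, and was highest at 49.40 and 47.06 TPM. Psme1 (PA28α), which interferon induces in many cells, had 40.96 TPM in replicate 1 and 31.92 TPM in replicate 2, and its log2 ratio to Psme3 was −0.27 and −0.56. The credible intervals of Psme1 and Psme3 were apart in only 1 of the 2 libraries, so that order is not firm. Psme2 (PA28β), the partner of PA28α, had 27.79 and 26.34 TPM, and its log2 ratio to Psme3 was −0.83 in both libraries. Psme4 (PA200) had 26.91 and 23.94 TPM, with a log2 ratio to Psme3 of −0.87 and −0.97. Psme2 and Psme4 were below Psme3 in both libraries with intervals apart.

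The gene copy Psme2b, at 0.57 and 0.61 TPM from 7.82 and 9.23 expected reads, shares a run of 341 identical bases with Psme2, so reads of the 2 genes cannot be fully separated. Psme1 and Psme2 are neighbours, 5911 bases apart on chromosome 14. The inhibitor gene Psmf1 (PI31) had 23.97 and 21.97 TPM. Psmc3ip, which is not part of the proteasome, had 2.36 and 2.10 TPM, and 21.2% of its exon bases overlap Mlx on the opposite strand, a gene at 27.51 and 28.08 TPM.

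Assembly chaperones, which help build the particles and then leave, were the lowest group with all members detected. Their median was 12.8 ± 0.636 TPM over 7 genes. The 19S chaperones were Psmd5 (S5b) at 20.75 and 14.18 TPM, Psmd9 (p27) at 18.68 and 16.09 TPM and Psmd10 (gankyrin) at 7.83 and 8.29 TPM. Among the 20S chaperones, Psmg4 (PAC4) had 14.57 and 18.44 TPM, Psmg2 (PAC2) 13.23 and 12.33 TPM, Psmg1 (PAC1) 9.99 and 9.87 TPM, and Psmg3 (PAC3) 9.03 and 8.51 TPM. In these tables every chaperone level in either library was below every counted 19S and standard core level. In the alignment-free tables that order did not hold for Psmd5, at 47.8 and 35.1 TPM, against 34.1 and 30.3 TPM for the core gene Psma2.

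Other genes tied to the proteasome do not carry a Psm symbol. Of 15 names listed, 12 were found in the tables and all 12 were detected, with a median of 48.1 ± 2.47 TPM. Pomp, the maturation factor of the 20S core, had the highest mean at 80.19 and 75.89 TPM, more than any chaperone with a Psm symbol. Usp14, a deubiquitinase that binds the 19S base, was next in mean and above Pomp in replicate 1, at 82.18 and 73.31 TPM, and Fbxo7, a partner of PI31, was lowest at 8.72 and 10.56 TPM. The 19S subunits Adrm1 (Rpn13) and Sem1 (Rpn15) had 54.70 and 52.34 TPM, and 25.14 and 24.49 TPM. Sem1 was thus below all 17 counted 19S genes.

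The transcription factor NRF1, encoded by Nfe2l1, drives proteasome genes when proteasome activity drops, after VCP extracts it from the endoplasmic reticulum and DDI2 cuts it. All 7 genes of that list found in the tables were detected, with a median of 34.3 ± 0.474 TPM. Vcp was highest at 138.27 and 128.32 TPM and Nfe2l1 next at 86.45 and 77.58 TPM. Nfe2l2, which encodes the related NRF2, was lowest at 4.82 and 4.27 TPM.

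The 2 animals gave closely similar levels of the proteasome genes, and of most other genes of the same depth. Of the 44 genes with a mean of 100 reads or more, 0 (0%) were 1.5-fold or more apart between the libraries, against 1.71% of the 12684 genes of that depth. At 2-fold the count was again 0 (0%), against 0.347%. With shares this low over all genes, a count of 0 among 44 does not set the proteasome genes apart. Replicate 2 over replicate 1, on scaled reads, gave log2 ratios from −0.10 for Psmc6 to 0.43 for Psmg4, with a median of 0.07. The median size of the log2 ratio was 0.074, beside 0.090 over all genes of that depth. With no minimum of reads, Psmb9 and Psmb11 were more than 2-fold apart, both on fewer than 20 reads. Those 2 of 50 genes (4%) stand against 21.9% of all genes at 2-fold and 31.8% at 1.5-fold. These shares are not matched for depth. A mean of 100 reads or more was reached by 44 of the 50 genes but by 12684 of all 28379. The contrast can therefore not be read as a trait of the proteasome genes.

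**Figure D3:**
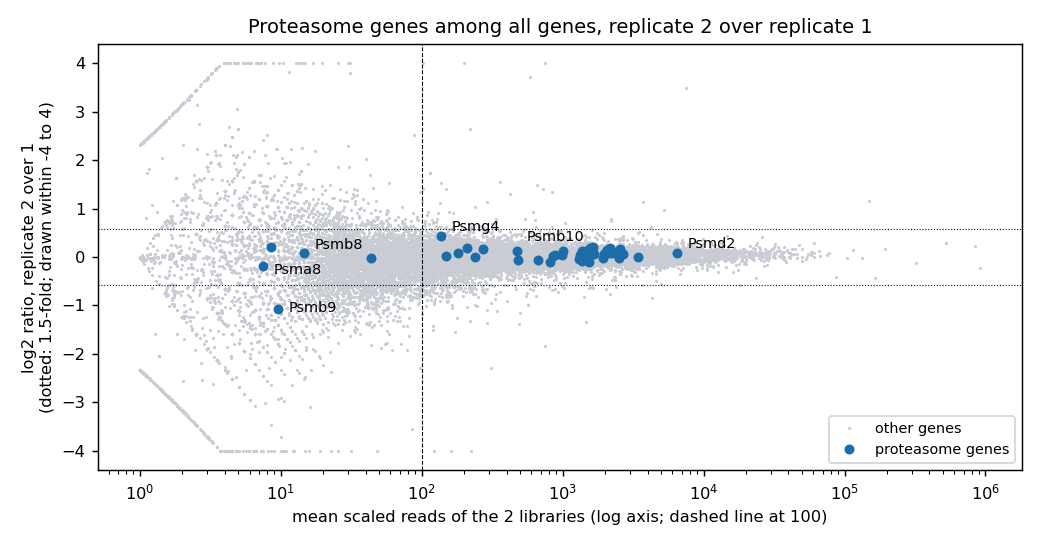
Log2 ratio of replicate 2 over replicate 1 in scaled reads against the mean scaled reads of both libraries (log axis), for proteasome genes (blue) and all other genes with a mean of 1 read or more (grey); Psmb11 is under that mean. To the right of the dashed line at 100 reads, the 44 proteasome genes stay between −0.10 and 0.43, inside the dotted lines at 1.5-fold.

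TPM differed more between the animals than reads did for Psmd5 and Psme1, where the shares of transcripts differed. Psmd5 had 20.75 TPM in replicate 1 and 14.18 TPM in replicate 2, although its reads were 842 and 794. Its leading transcript was the short Psmd5-202 (555 bases) in replicate 1, with 52.7% of TPM, and the long Psmd5-201 (4397 bases) in replicate 2, with 49.4%. Psme1 had 674 and 654 reads; the transcript Psme1-209, annotated for nonsense-mediated decay, took 21.5% of its TPM in replicate 1 and 1.44% in replicate 2. Only 5 of the bases of Psme1-209 are absent from the coding transcripts of the gene. Over coding transcripts alone, Psme1 had 31.14 and 30.02 TPM, and the log2 ratio to Psme3 was −0.49 and −0.46.

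Of the 41 proteasome genes at 10 TPM or more with at least 2 transcripts, 36 (87.8%) gave 50% or more of their TPM to the leading transcript in both libraries, against 65.4% of all such genes. Psmd5 was the only 1 of the 41 (2.44%) whose leading transcript differed between the libraries, against 8.08% of 7652 genes. The alignment-free and alignment-based tables named different leading transcripts for 10 of 41 (24.4%), against 29.5%. These were Psma3, Psmb1, Psmb10, Psmc6, Psmd2, Psmd5, Psmd8, Psmd9, Psmg2 and Psme2. In the alignment-based tables, the leading transcript in replicate 1 was not protein-coding for 2 of 41 (4.88%), against 7.7%. These were Psmb10 and Psmd13, whose Psmd13-211 is annotated for nonsense-mediated decay and held 33.4% and 35.4%. In Psmd13 the coding transcript Psmd13-208 was nearly level with Psmd13-211, at 33.4% in replicate 1 and 32.3% in replicate 2. The alignment-free tables put such a transcript in the lead in replicate 1 for Psma3, Psmc6 and Psmd2 as well. For those tables the share over all genes was not computed.

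Protein-coding transcripts held a median of 91.9% of a proteasome gene's TPM in replicate 1 and 93.7% in replicate 2, beside 87.2% and 89.0% over all such genes. The alignment-free tables gave 83.6% and 88.0%, beside 84.9% and 86.5%, so the order turned in replicate 1. A limit of 75% was chosen after the shares were seen. In the alignment-based tables, 7 of 41 genes (17.1%) were under it in both libraries, against 24.3% of protein-coding genes at 10 TPM or more. Beside Psmb10 these were Psma3, Psmb4, Psmc6, Psmd13, Psme2 and Psmf1. In the alignment-free tables Psme2 was over the limit, at 82.7% and 90.7%. There Psma1, Psmc1, Psmc3, Psmc4, Psmd2, Psmd11 and Psme1 were also under it in both libraries, and the share of all genes under it was not computed. Psmb4, the highest proteasome gene of the alignment-based tables, had 70.44 and 79.06 TPM from its coding transcript Psmb4-201, while the retained intron Psmb4-202 held 45.52 and 42.99 TPM and differs from coding exons by only 19 of its 666 bases. At coding transcripts alone, Psmb4 was therefore below Psmb5, Psmb6 and Psmb7.

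Psma3 split sharply between quantifications. Coding transcripts held 8.13% and 7.37% of its TPM in the alignment-free tables, against 54.1% and 50.1% in the alignment-based ones. The alignment-free tables gave 46.3% and 46.7% to Psma3-201, annotated for nonsense-mediated decay. All 875 bases of Psma3-201 are also in coding transcripts of the gene, and the same holds for Psmd13-211, so these can be told apart only by how exons are joined. The gene-level values of Psma3 differed far less, with an alignment-free level 1.20 times the alignment-based one after rescaling.

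**Figure D4:**
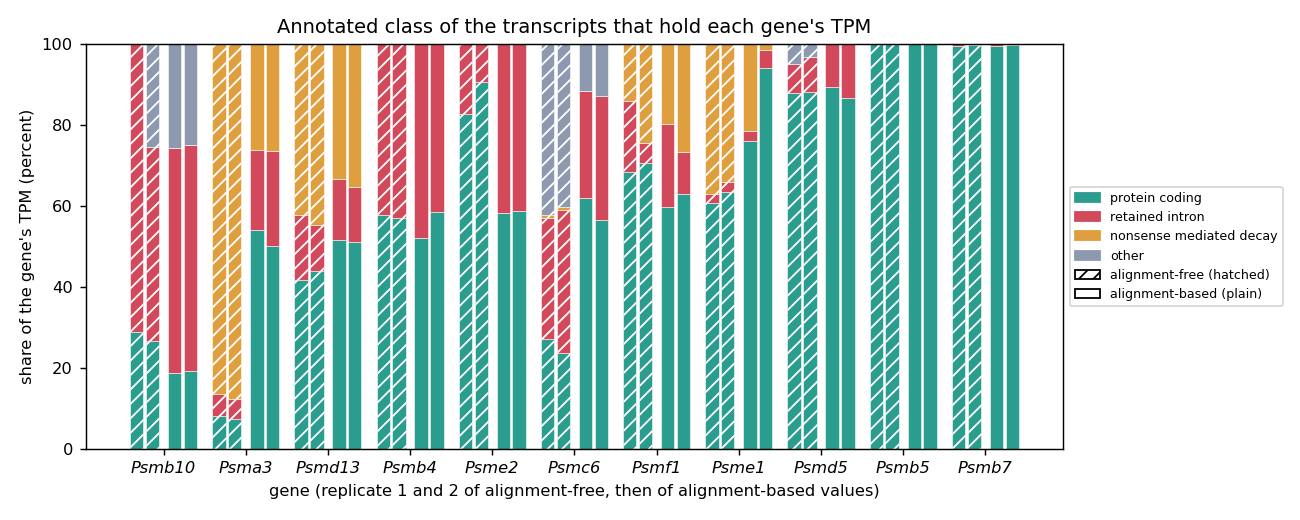
Share of each gene's TPM (percent) in transcripts annotated as protein-coding, retained intron, nonsense-mediated decay or other; for each gene, hatched bars are replicates 1 and 2 of the alignment-free tables and plain bars those of the alignment-based tables. The genes are the 7 under 75% coding in the alignment-based tables, then Psme1, Psmd5, Psmb5 and Psmb7. In the alignment-based tables, coding transcripts hold 18.6% and 19.2% of Psmb10 and 100% of Psmb5.

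Once rescaled, gene levels were mostly the same by both quantifications, for the proteasome genes and for all genes alike. After each was rescaled to nuclear protein-coding genes, 2 of 41 proteasome genes at 10 TPM or more (4.88%) were over 1.5-fold apart, against 4.95% of 8202 genes. Psmc6 was higher in the alignment-free tables by 1.52 times, and Psma2 was lower at 0.645 times. In Psmc6 the alignment-free tables gave 39.0% and 37.3% to Psmc6-206, a processed transcript of 844 bases, which held 5.63% and 6.92% in the alignment-based tables. The median ratio of alignment-free to alignment-based level was 0.986 for these 41 genes and 0.936 for all.

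Promoter sequences from RefSeq (GRCm38.p6) were matched by symbol for 42 of the 50 genes, in 45 windows from 250 bases before to 50 after the start. Both strands were searched for short motifs, which can overlap each other. The core of the antioxidant response element, to which NRF1 and NRF2 bind, was written as TGANNNNGC and was found in 26 of 45 windows (57.8%), against 41.3% of all 32851 windows. The narrower form TGACNNNGC, which is a special case of it and was added after the data were seen, was in 6 windows (13.3%), against 12.4%. The box CCAAT was in 15 (33.3%), against 37.4%. The STAT-type motif TTCNNNGAA was in 3 (6.67%), against 8.30%, and the interferon-response type motif in 5 (11.1%), against 3.44%. The genes with the interferon-response type motif were Psmb3, Psmd4, Psmd9, Psme1 and Psmg4, and no immunoproteasome gene held it in its window. In Psmb8 the STAT-type motif began at −97.

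Psmb5 and Psmb6 both held the narrow antioxidant core just before the start, beginning at −47 in Psmb5 and −9 in Psmb6, and the window of Psmb10 held none of the motifs. The wider core was also in the windows of the immunoproteasome genes Psmb8, beginning at 24, and Psmb9, beginning at −60. The promoter of Psmb7, the counterpart of Psmb10, was not analysed here. The windows of Psmb10, Psmb5 and Psmb6 are printed as examples without and with a match, with motif matches in capitals, 5′ to 3′ on the strand of the gene. Bases that GENCODE M21 places in an exon of the gene were left out, 52 for Psmb10 and 27 for Psmb5, and for that reason the windows of Psmb8 and Psmb9 are not shown. The stretches are chr8:105938445-105938642 on the minus strand for Psmb10, chr14:54618023-54618245 on the minus strand for Psmb5 and chr11:70525107-70525356 on the plus strand for Psmb6. A match describes the letters only, and no measurement of binding was used.

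Psmb10: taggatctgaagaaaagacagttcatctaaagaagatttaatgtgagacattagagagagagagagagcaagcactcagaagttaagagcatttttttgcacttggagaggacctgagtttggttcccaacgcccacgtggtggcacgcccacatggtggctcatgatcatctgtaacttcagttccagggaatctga

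Psmb5: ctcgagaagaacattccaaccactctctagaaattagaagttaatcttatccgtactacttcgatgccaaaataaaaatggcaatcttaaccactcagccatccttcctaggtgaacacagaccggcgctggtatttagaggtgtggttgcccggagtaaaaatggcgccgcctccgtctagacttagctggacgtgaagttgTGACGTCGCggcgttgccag

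Psmb6: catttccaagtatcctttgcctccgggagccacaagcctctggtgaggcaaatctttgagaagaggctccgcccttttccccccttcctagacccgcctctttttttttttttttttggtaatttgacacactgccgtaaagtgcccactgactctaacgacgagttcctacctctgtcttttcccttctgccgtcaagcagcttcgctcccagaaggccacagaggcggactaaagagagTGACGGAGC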

How the data were processed

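Total RNA-seq of left cerebral cortex from 2 female mice was used as 1 group (n = 2). The expected counts and TPM of genes and transcripts are the authors' own, estimated from reads aligned to the mm10 transcriptome (annotation M21) per the deposited README files. The TPM values were scaled by the authors over all transcripts, spike-ins included, per the file headers. The credible interval bounds of TPM are other values the authors deposited; neither their level nor the tools used are given in these sources. For the alignment-free estimated counts and TPM the authors skipped alignment, per the deposited README files; both were summed per gene here. Reads of the CAST allele that differ from the reference can map less well, and no allele was separated.

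All 55536 gene rows matched GENCODE M21 by identifier. Rows naming no gene held 2.29e-05% and 3.21e-06% of the reads of replicates 1 and 2, and ERCC spike-ins 0.413% and 0.401%. Members and lists were chosen with earlier results of these data known. Genes named in full are the 2 highest and the lowest of each role and list, catalytic subunits with their counterparts, members under 1 TPM, and members that differ between libraries or quantifications; others are given in passing, and a few list genes are not reported here. Detected means 1 TPM or more in both libraries. For a ratio of genes, 0.1 TPM was added to both before taking log2. Libraries were compared on expected counts scaled with TMM (edgeR 4.0.16), with 0.5 added and a mean of 100 reads or more. Transcripts were described for genes at 10 TPM or more in both libraries. The ratio step was tested on simulated data. Floors cover counting error only. What the deposited intervals cover is not known here, since neither their level nor the tools are given. For Psmb9 in replicate 2, the TPM of 0.33 lay below the deposited lower bound of 0.348. The same held for Psma8 in both libraries (0.34 against 0.424, and 0.21 against 0.318) and for Psmb11 in replicate 1. Alternatives were the alignment-free tables, other pseudocounts, filters and scalings (DESeq2 1.42.0 size factors among them), protein-coding transcripts only, and each replicate left out. The DESeq2 size factors were 1 in both libraries, so that alternative compared counts without scaling. Other steps used Python 3.11.15, pandas 2.3.3, numpy 2.4.6 and R 4.3.3.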

Additional observations from a re-analysis of the deposited data

How the results depend on the processing

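No paired analysis was possible because there is only 1 group. No log2 ratio tried changed sign under any alternative run, but orders of levels did turn in the alignment-free tables: the α ring median stood above constitutive β, Psmc3 above Psmd2, Psmc6 above 3 other ATPases and Psmd5 above Psma2. Leaving out 1 replicate moved no median or ratio by more than 1 SD, which with 2 libraries follows from the construction. The count of detected genes was 45 without replicate 1 and 46 without replicate 2. With TPM rescaled to nuclear protein-coding genes it was 47, since Psmb8 and Psme2b then passed 1 TPM. Psmb11 over Psmb5 was not computed, since Psmb11 had 0 and 1 read in the alignment-based tables. Depth limits Psmb8, Psmb9, Psma8, Psmb11 and Psme2b, which rest on at most 15 reads a library in the alignment-based tables. The alignment-free tables gave more to Psmb11, at 27.3 and 16.6 reads, and to Psmb8, at 22 and 17. With n = 2 an SD is itself uncertain, so many small shifts exceed it; where a cause is not part of the alternative's construction, the cause was not tested. Alternatives with protein-coding transcripts only were chosen after the data were seen.

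Median TPM depended on scale. The alignment-free tables gave 25.5 for 19S chaperones, 110.8 for base ATPases, 103 for other base subunits, 91.6 for the lid, 136.0 for the α ring, 18.1 for 20S chaperones, 129.9 for constitutive β, 1.54 for the immunoproteasome and 34.7 for activators. Rescaling to nuclear protein-coding genes gave, in that order, 33.0, 128, 151, 115, 145, 22.9, 200.2, 1.72 and 54.5. With genes under 1 TPM left out, the immunoproteasome median was 39.6 (Psmb10 alone) and that of activators 31.8. Protein-coding transcripts only gave 59.3 for ATPases, 61.5 for other base subunits, 48.3 for the lid, 61.7 for the α ring, 10.9 for 20S chaperones, 75.3 for constitutive β and 22.1 for activators.

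In log2, Psmb9 over Psmb6 was −6.04 with 1 TPM added. Psmb10 over Psmb7 was −2.41 in expected counts and −3.99 over coding transcripts. Psmb8 over Psmb5 was −6.45 in the alignment-free tables, −5.87 with 1 TPM added and −7.54 over coding transcripts. Psme2 over Psme3 was −1.74, −0.81 and −1.42 under those same alternatives, and Psme4 over Psme3 was −1.48 in the alignment-free tables. Psma8 over Psma7 was −6.37 with 1 TPM added, −8.61 with nothing added and −8.62 over coding transcripts. The highest over the lowest core subunit was 7.03-fold in the alignment-free tables and 3.87-fold over coding transcripts. The 19S to core ratio was −0.47 in the alignment-free tables. With no read minimum, 2 genes were 1.5-fold and 2 were 2-fold apart between the libraries (4%), Psmb9 and Psmb11, against 31.8% and 21.9% of all genes. Those shares are not matched for depth. In the alignment-free tables the leading transcript differed between libraries for 3 genes, Psmb10, Psmd2 and Psmg2. The share over all genes was not computed for those tables, so this count has no background to be read against.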

Other observations

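Genes that supply the proteasome with substrate had a higher median than the proteasome genes (55.1 ± 2.03 TPM). All 11 ubiquitin, activation and shuttle genes listed were detected, with a median of 121 ± 6.86 TPM. The polyubiquitin gene Ubb stood at 868.10 TPM in replicate 1 and 859.09 TPM in replicate 2. The ubiquitin-activating enzymes differed widely, with Uba1 at 236.19 and 236.60 TPM and Uba6, the lowest of the list, at 8.25 and 7.23 TPM. Among shuttle factors, which carry tagged proteins to the 19S base, Ubqln2 had 125.62 and 115.92 TPM. Rad23b had 101.44 and 105.20 TPM.

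Of the 4 pseudogenes dropped from the set, 3 had 0 reads in both libraries, and Psmb6-ps2 had 0 reads in replicate 1 and 1 read in replicate 2.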
